A study of Homo sapiens with 6 samples.

Results

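A set of 10 genes of hyaluronan synthesis, binding and turnover was examined in IMR90 cells with and without oncostatin M. They are the synthases HAS1, HAS2 and HAS3, the hyaluronidases HYAL1 and HYAL2, the receptor CD44, and the matrix proteins VCAN, TNFAIP6, PTX3 and HAPLN1. They were chosen by name, and a gene was measured where a probe set, the group of probes that reports a transcript, carried that symbol alone. This held for 8 of the 10 genes, out of 18417 genes measured in all, and HAS1 and HYAL1 were not analysed here. Another 40 genes of the same pathway were listed by role, of which 35 were measured. Both choices were made with earlier results of these data known.

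Hyaluronan is a long unbranched sugar polymer of the extracellular matrix, built from alternating glucuronic acid and N-acetylglucosamine. Synthases in the plasma membrane make it from UDP-sugars and extrude it, proteins with a link module or transferred heavy chains organise it into a coat, and hyaluronidases cut it before lysosomal enzymes finish its breakdown. Lung fibroblasts are a main source of hyaluronan in that organ, and its size and binding partners are known to differ between resting and inflamed tissue.

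IMR90 is a line of human lung fibroblasts, and oncostatin M is a cytokine of the interleukin-6 family. Total RNA was hybridised to 1 array per sample, from 3 untreated controls and from 3 samples that had received recombinant human oncostatin M once, at 10 ng/mL. No source used here gives the time of exposure, and all samples come from this 1 line. Nothing in the labels says whether replicates were grown as separate cultures, and the p-values therefore describe the scatter of these 6 arrays, part of which may be technical.

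Levels below are log2 RMA expression values, given as mean ± SD over 3 arrays, and a change is oncostatin M minus control in log2 units with its standard error (SE) from limma. RMA is a method that corrects background, normalizes arrays to each other and summarises the probes of a set. Adjusted p is the Benjamini-Hochberg value over all 18417 genes, and a change passed at an adjusted p under 0.05. Levels of different genes are not ranked against each other, because each probe set has its own response.

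The arrays correlated at 0.9893 or above, and oncostatin M 1 deviated most from its group, by 0.133 log2 units on average against 0.0635 to 0.0881 for the other 5. As a guide to detection, 428 olfactory receptor and keratin-associated protein genes, which fibroblasts are not known to express, had a mean level of 4.86 in control and 4.89 after oncostatin M. Their percentile of 95 lay at 6.698 and 6.715, and these values serve below as the silent bound, although not all of these genes need be silent. All 10 fibroblast markers lay above the bound, and of these LUM and PDGFRA rose by 0.75 and 0.39 and PDGFRB fell by 0.37 (adjusted p = 0.0222, 0.0337 and 0.0253). Of 17 measured epithelial, endothelial and leukocyte markers, 13 had means at or below it in both groups, and KRT8, KRT18, TEK and CD68 lay above it. KRT18 rose by 0.52 (SE 0.09, adjusted p = 0.0190), and TEK differed by 0.47 without overlap of the groups (adjusted p = 0.182). The summed log2 level of the 17 markers was 102.9 to 103.4 in control and 102.9 to 106.6 after oncostatin M, the highest being oncostatin M 1. The part of other cell types in the results was not tested.

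None of the 8 measured genes passed the threshold in either direction (limma). The largest differences were a lower mean of HAS2, 1.65-fold below control, and a higher mean of TNFAIP6, 1.58-fold above control, each with an unadjusted p under 0.05. The other 6 genes, HAS3, HYAL2, CD44, VCAN, PTX3 and HAPLN1, differed by between -0.11 and 0.17. Among all genes 1.72% passed as higher and 1.70% as lower, so a count of 0 in 8 lies near the background. The unadjusted p was under 0.05 for 2 of 8 genes and for 11.6% of all genes. All 3 treated arrays lay above all 3 controls for 1 of the 8 (TNFAIP6), against 7.43% of all genes, and below them for 0 of 8, against 10.6%. The median change of the 8 was -0.050, beside 0.001 over all genes. In RNA of whole cultures, fewer expressing cells and less RNA per cell cannot be told apart.

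**Figure D1:**
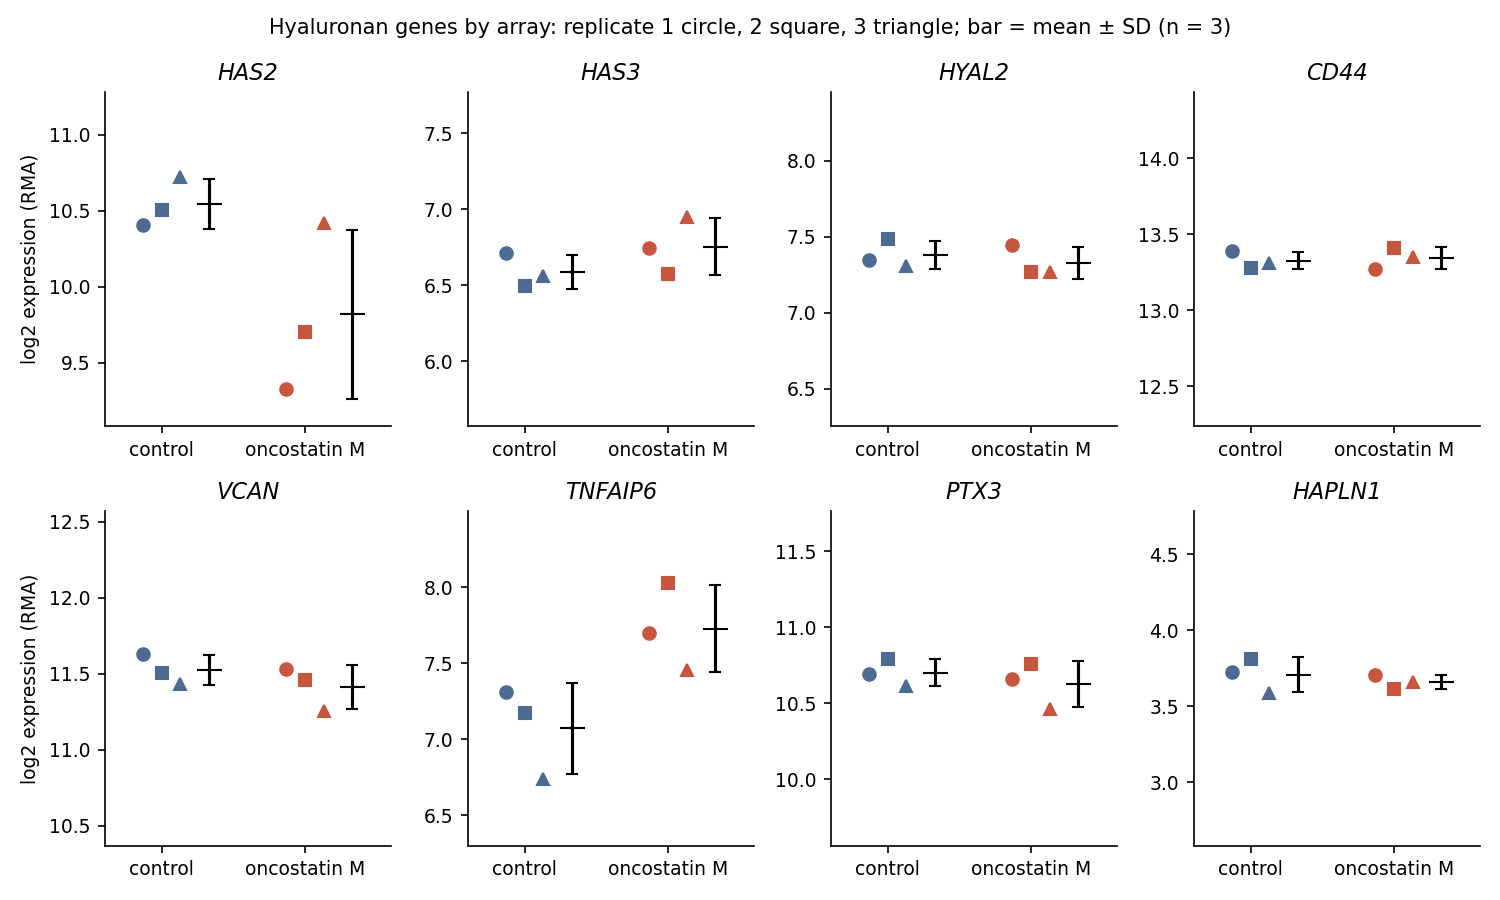
Log2 RMA expression of the 8 measured hyaluronan genes on each array, with control in blue and oncostatin M in red, circles, squares and triangles for replicates 1, 2 and 3, and the mean ± SD of 3 arrays beside them. Every panel spans the same number of log2 units, so the wide spread of HAS2 after oncostatin M and the separated groups of TNFAIP6 can be set against the narrow spread of CD44.

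HAS2 encodes the synthase that makes most of the long hyaluronan of many mesenchymal cells. Its level (probe set 8152617) was 10.40, 10.51 and 10.73 on control arrays 1 to 3, and 9.33, 9.71 and 10.42 on oncostatin M arrays 1 to 3. Treated arrays 1 and 2 thus lay well below every control, while oncostatin M 3 lay just above control 1, so that the groups overlapped. The mean was 10.55 ± 0.16 in control and 9.82 ± 0.56 after oncostatin M, a change of -0.73 (SE 0.24, 95% confidence interval -1.28 to -0.17, unadjusted p = 0.0169, adjusted p = 0.231). The SD among treated arrays was at or above that of 99.8% of all genes, and the size of the change was at or above that of 98.8%.

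The size of the HAS2 change moved with single arrays. Without oncostatin M 3 the change was -1.03 and passed (adjusted p = 0.0109), whereas without oncostatin M 1 it was -0.48 (adjusted p = 0.278). With arrays weighted by their fit to the group, which gave oncostatin M 1 a weight of 0.226 and oncostatin M 3 a weight of 3.22, the change was -0.32 (adjusted p = 0.447). With replicate number as a further term in limma, it was -0.73 with a smaller SE of 0.15, and did not pass (adjusted p = 0.093). The sign was negative in all of these fits, and adjusted p over all 17 alternatives ran from 0.0109 to 0.572.

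HAS3, a synthase associated with shorter chains, was 6.71, 6.49 and 6.56 in control and 6.74, 6.57 and 6.95 after oncostatin M. These values straddled the silent bound, and the groups overlapped. The change was 0.17 (SE 0.11, 95% confidence interval -0.09 to 0.42, adjusted p = 0.727), and it was 0.069 without oncostatin M 3 and 0.26 without oncostatin M 2. HAS2 was thus the synthase measured clearly above the bound.

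HYAL2 encodes a hyaluronidase anchored to the cell surface that cuts long chains into fragments. It was 7.35, 7.48 and 7.30 in control and 7.45, 7.27 and 7.27 after oncostatin M, a change of -0.051 (SE 0.085, 95% confidence interval -0.25 to 0.14, adjusted p = 0.957). The treated arrays lay within or just below the range of the controls.

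CD44 is the main cell surface receptor of hyaluronan on fibroblasts. It was 13.39, 13.28 and 13.31 in control and 13.27, 13.41 and 13.35 after oncostatin M, with a mean of 13.32 ± 0.06 against 13.34 ± 0.07. The change was 0.019 (SE 0.073, adjusted p = 0.982), and its interval of -0.15 to 0.19 was the narrowest among the 8 genes. The highest control mean of any gene was 13.60, so CD44 lay near the top of the measured range, and whether its probes were near saturation was not tested. The treated arrays surrounded the control values.

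TNFAIP6 encodes TSG-6, a secreted link module protein that transfers heavy chains of inter-alpha-inhibitor onto hyaluronan and is known to be induced by tumour necrosis factor in fibroblasts. Its level (probe set 8045688) was 7.31, 7.17 and 6.74 on control arrays 1 to 3 and 7.70, 8.03 and 7.45 on oncostatin M arrays 1 to 3. Every treated array lay above every control, by 0.15 between the nearest pair. The mean was 7.07 ± 0.30 in control and 7.73 ± 0.29 after oncostatin M, a change of 0.66 (SE 0.18, 95% confidence interval 0.24 to 1.07, unadjusted p = 0.00620), which did not pass after adjustment (adjusted p = 0.120). The spread among controls was at or above that of 98.9% of all genes. The control mean ranked at 95.8% of the silent reference genes, and control 3, at 6.74, lay just above the silent bound of 6.698. The change stayed above 0 when each array was left out, between 0.49 and 0.79, with adjusted p between 0.0797 and 0.327.

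PTX3 encodes a long pentraxin that binds TSG-6 and heavy chains and helps to crosslink hyaluronan in the matrix around the oocyte. It was 10.69, 10.79 and 10.61 in control and 10.66, 10.76 and 10.46 after oncostatin M, a change of -0.073 (SE 0.095, 95% confidence interval -0.29 to 0.15, adjusted p = 0.929). The groups overlapped, and the values of the first and second array were nearly the same in both groups.

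Stretches of 250 bases before the gene start are shown for TNFAIP6, whose groups were separated, for its binding partner PTX3, whose groups overlapped, and for CEMIP, a hyaluronan-degrading gene described below that passed. They are RefSeq sequences of GRCh38.p14 on the plus strand, 5′ to 3′, at chr2:151357342-151357591 for TNFAIP6, chr3:157436600-157436849 for PTX3 and chr15:80779120-80779369 for CEMIP. Capitals mark the motif matches.
TNFAIP6 upstream: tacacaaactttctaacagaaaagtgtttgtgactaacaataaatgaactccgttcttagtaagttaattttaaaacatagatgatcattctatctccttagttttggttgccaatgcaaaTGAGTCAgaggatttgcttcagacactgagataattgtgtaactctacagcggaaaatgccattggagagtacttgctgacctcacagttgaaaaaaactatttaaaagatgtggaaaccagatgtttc
PTX3 upstream: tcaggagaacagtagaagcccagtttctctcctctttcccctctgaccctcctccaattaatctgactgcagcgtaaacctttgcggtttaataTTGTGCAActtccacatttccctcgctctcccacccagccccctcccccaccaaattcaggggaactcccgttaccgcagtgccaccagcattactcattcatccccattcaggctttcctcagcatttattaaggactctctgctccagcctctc
CEMIP upstream: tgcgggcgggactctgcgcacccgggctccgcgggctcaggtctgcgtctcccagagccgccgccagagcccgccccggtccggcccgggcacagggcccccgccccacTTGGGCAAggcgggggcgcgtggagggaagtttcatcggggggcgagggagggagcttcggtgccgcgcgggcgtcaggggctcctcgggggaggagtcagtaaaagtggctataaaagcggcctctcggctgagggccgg

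Motifs were searched on both strands in these 250 bases. The letters were TGANTCA for AP-1, a factor of the FOS and JUN families, TTGCNNAA for C/EBP, a family of factors of the acute phase response, and TTCNNNGAA for STAT, the factors activated by JAK kinases. The AP-1 letters stand in TNFAIP6 as TGAGTCA, starting 129 bases before the gene start, and are found in 6.57% of the 35116 promoters of the table. They were in 1 of the 9 member promoters and in 1 of 37 promoters of other pathway genes (EZR). The C/EBP letters stand in PTX3 as TTGTGCAA, starting 156 bases before the start, and in CEMIP as TTGGGCAA, starting 141 bases before it, both in the reverse orientation, and are found in 9.05% of promoters. PTX3 was the 1 of 9 member promoters with these letters, and CEMIP the 1 of 37 others. The STAT letters were in 0 of the 9 member promoters analysed, in 3 of 37 promoters of other pathway genes (ITIH4, PGM3 and UGP2) and in 6.57% of all promoters. The promoters of HAS2 and of ADAMTS1, a protease gene described below that passed, were not analysed here. None of the printed matches overlaps another. A match is a description of letters and does not show that a factor binds.

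VCAN encodes versican, a large chondroitin sulfate proteoglycan that binds hyaluronan through its link modules and fills the coat around fibroblasts. It was 11.63, 11.51 and 11.43 in control and 11.53, 11.46 and 11.25 after oncostatin M, a change of -0.11 (SE 0.10, 95% confidence interval -0.33 to 0.11, adjusted p = 0.841). The treated arrays were a little lower on average, and 2 of them lay within the control range. Without oncostatin M 3 the change was -0.029, and without control 1 it was -0.056.

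HAPLN1 encodes a link protein that locks versican and aggrecan onto hyaluronan. It was 3.73, 3.81 and 3.58 in control and 3.70, 3.61 and 3.66 after oncostatin M (change -0.049, SE 0.081, adjusted p = 0.955). These levels ranked at 8.18% of the silent reference genes in control and 7.71% after oncostatin M, so no size is drawn from them.

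VCAN and HAPLN1 are direct neighbours in RefSeq's order of protein-coding genes, as are ACAN and HAPLN3, BCAN and HAPLN2, and NCAN and HAPLN4, so each hyalectan, the proteoglycan family of versican, has a link protein gene beside it. None of these 8 genes passed, and their changes ran from -0.11 for VCAN to 0.23 for NCAN (SE 0.13, adjusted p = 0.650), a proteoglycan of brain whose means lay below the silent bound and whose change was 0.088 without oncostatin M 1. HYAL1 and HYAL2 are also direct neighbours.

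**Figure D2:**
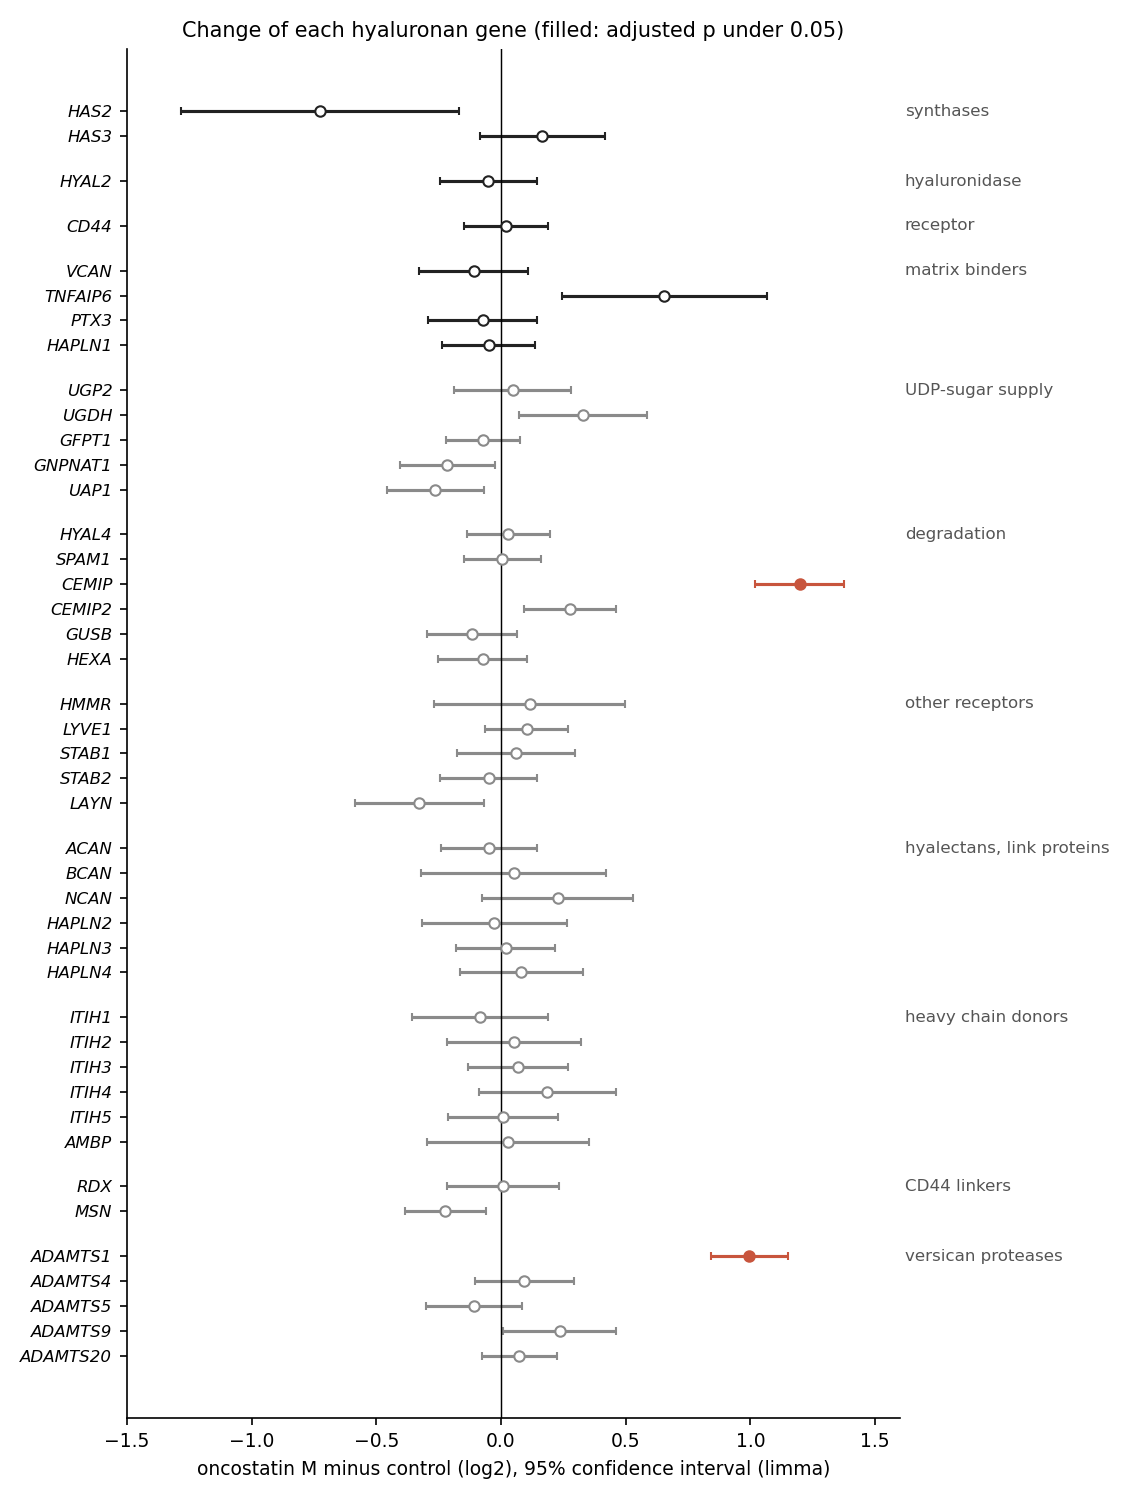
Change of each measured hyaluronan gene, oncostatin M minus control in log2 units, with its 95% confidence interval from limma, grouped by role with the 8 members in black at the top. Filled red points passed at an adjusted p under 0.05, which holds for CEMIP at 1.20 and ADAMTS1 at 1.00.

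Around these 8 genes, 35 other pathway genes were measured, and limma called 2 of them higher and 0 lower, beside the background of 1.72% and 1.70%. The lists were drawn up with earlier results of these data known, so these shares are no independent comparison. All 3 treated arrays lay above all controls for 6 of the 35, against 7.43% of all genes, and below them for 5, against 10.6%. The median change was 0.030. The genes that rose were CEMIP, a gene of hyaluronan degradation, and ADAMTS1, a protease that cleaves versican. The unadjusted p was under 0.05 for 9 of 35, against 11.6% of all genes.

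CEMIP encodes a secreted protein needed for the breakdown of hyaluronan by skin fibroblasts. Its level (probe set 7985317) was 9.03, 9.12 and 8.93 in control and 10.25, 10.26 and 10.16 after oncostatin M. The groups were separated by 1.04 between their nearest arrays, more than the spread within either group. It rose by 1.20 (SE 0.08, 95% confidence interval 1.02 to 1.38, adjusted p = 0.000238), a 2.30-fold higher level. The call held with each array left out, with changes of 1.15 to 1.25 and adjusted p up to 0.00644.

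The other measured genes of degradation did not pass. CEMIP2, a transmembrane relative of CEMIP, was 10.03, 10.09 and 10.09 in control and 10.21, 10.43 and 10.39 after oncostatin M, without overlap (change 0.28, SE 0.08, adjusted p = 0.149). It passed without oncostatin M 1 (adjusted p = 0.0310), and over all 17 alternatives its adjusted p ran from 0.00695 to 0.446. The lysosomal enzymes GUSB and HEXA differed by -0.11 and -0.074, and HYAL4 and SPAM1, of the hyaluronidase gene family, lay below the silent bound. In this list of 7 named genes, 6 were measured and 1 was higher, with a median change of 0.018.

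ADAMTS1 (probe set 8069676) was 11.20, 11.21 and 11.29 in control and 12.21, 12.24 and 12.25 after oncostatin M. It rose by 1.00 (SE 0.07, 95% confidence interval 0.84 to 1.15, adjusted p = 0.000297), a 1.99-fold higher level, and all treated arrays lay above all controls. The call held with each array left out, with adjusted p up to 0.00738. ADAMTS5, its direct neighbour in RefSeq's gene order and also a versicanase, was 7.54, 7.60 and 7.72 in control and 7.57, 7.57 and 7.40 after oncostatin M, and its groups overlapped (change -0.11, SE 0.08, adjusted p = 0.804). The means of ADAMTS9 lay below the silent bound in both groups, and its level differed by 0.23 without overlap (adjusted p = 0.399). Of 5 measured versican-cleaving proteases 1 was higher and none lower, with a median change of 0.093. All 3 treated arrays lay above all controls for 3 of the 5 (ADAMTS1, ADAMTS9 and ADAMTS20), against 7.43% of all genes. The means of 3 of the 5, ADAMTS9 and ADAMTS20 among them, lay at or below the silent bound in both groups.

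The UDP-sugars that the synthases join come from separate branches, and none of the 5 measured genes passed (median change -0.072, 3 of 5 with an unadjusted p under 0.05, against 11.6% of all genes). UGDH, which makes UDP-glucuronic acid, was 11.52, 11.42 and 11.65 in control and 11.66, 11.87 and 12.05 after oncostatin M. The treated arrays all lay above the controls, by 0.01 at the nearest (change 0.33, SE 0.11, adjusted p = 0.236), and UGDH passed without oncostatin M 1 (change 0.43, adjusted p = 0.0394, with 0.00901 to 0.580 over all alternatives). In the hexosamine branch, which makes UDP-N-acetylglucosamine, UAP1 was 10.93, 10.83 and 10.90 in control and 10.48, 10.71 and 10.69 after oncostatin M (change -0.26, SE 0.08, adjusted p = 0.206). GNPNAT1 differed by -0.21 (adjusted p = 0.327) and GFPT1, the entry enzyme, by -0.072 (adjusted p = 0.853). All 3 treated arrays lay below all controls for UAP1, GNPNAT1 and GFPT1, a pattern held by 10.6% of all genes. UGP2, the remaining measured gene of this list, differed by 0.047, and its groups overlapped. GFPT2 and PGM3, also in the list, were not measured, so a difference between the branches was not tested.

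Other receptors and binding partners did not pass. LAYN, a transmembrane hyaluronan receptor, was 9.49, 9.50 and 9.63 in control and 8.96, 9.32 and 9.36 after oncostatin M (change -0.33, SE 0.11, adjusted p = 0.252), and the change was -0.20 without oncostatin M 1. Its other probe set lay at 6.43 to 6.55 in control, below the silent bound, and gave 0.15 (adjusted p = 0.680). HMMR, a hyaluronan-binding protein of the mitotic spindle, differed by 0.12 (SE 0.17, adjusted p = 0.941), and by between 0.0071 without control 2 and 0.29 without oncostatin M 1. MSN, which encodes moesin and links CD44 to actin, was 12.48, 12.49 and 12.49 in control and 12.18, 12.33 and 12.28 after oncostatin M (change -0.22, SE 0.07, adjusted p = 0.190). The 6 genes listed for the inter-alpha-inhibitor family, which includes the donors of the heavy chains that TSG-6 transfers, all had means at or below the silent bound. ITIH4 differed by 0.19 (SE 0.12, adjusted p = 0.709), and by 0.049 without oncostatin M 1.

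**Figure D3:**
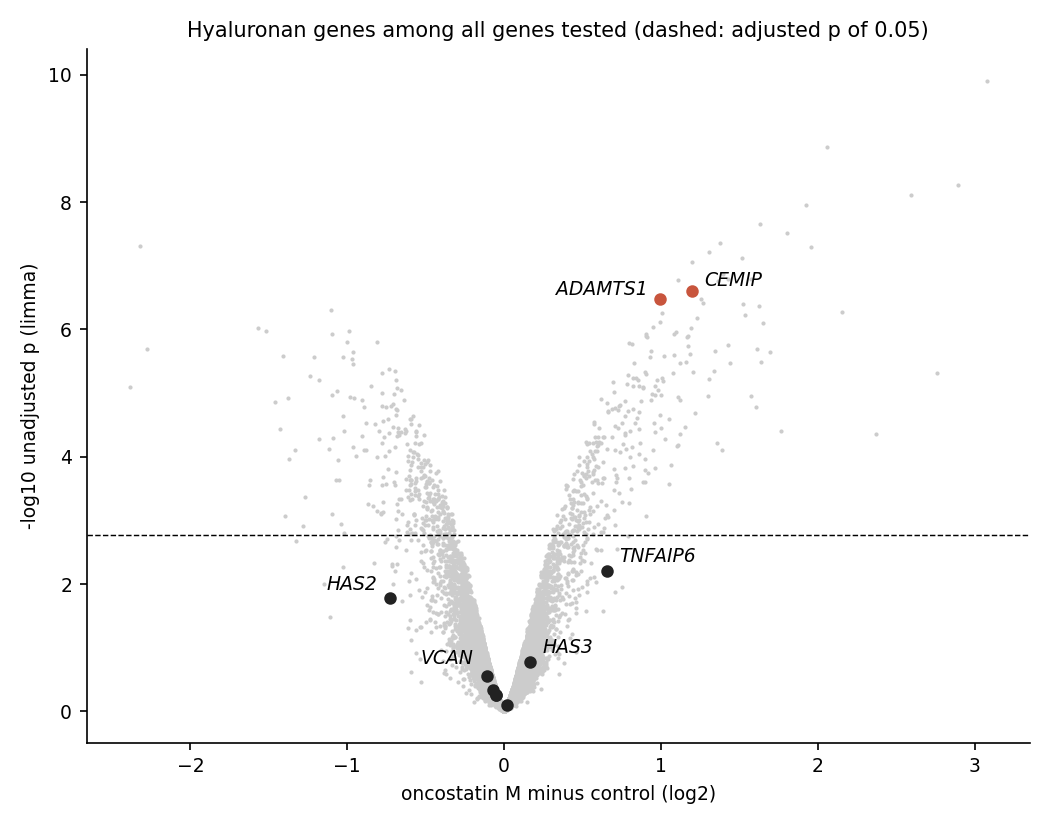
Each grey point is 1 of the 18417 genes, with its change in log2 units against −log10 of its unadjusted p from limma, the 8 hyaluronan genes in black and CEMIP and ADAMTS1 in red. HAS2 and TNFAIP6 lie outside the dense centre yet under the dashed line where adjusted p is 0.05, and the 6 others lie near a change of 0.

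**Figure D4:**
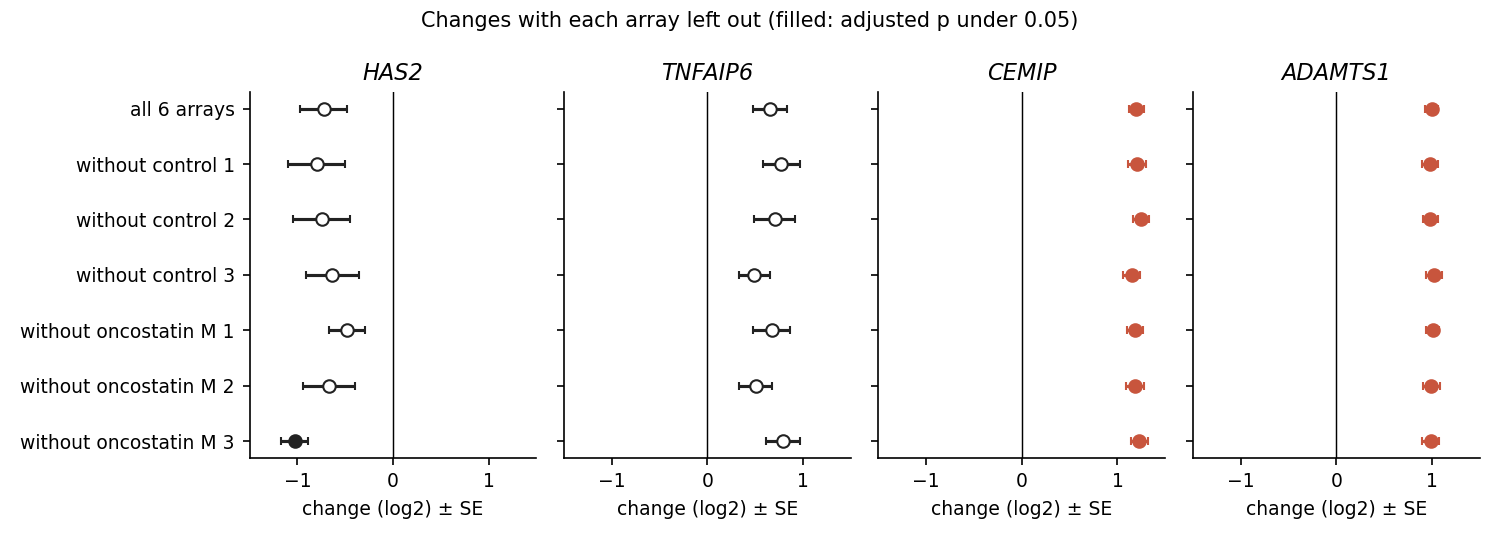
Change ± SE in log2 units for HAS2, TNFAIP6, CEMIP and ADAMTS1 with all 6 arrays and with each array left out, filled where adjusted p is under 0.05. HAS2 passed in the fit without oncostatin M 3 alone, TNFAIP6 in none of the 7 fits, and CEMIP and ADAMTS1 in all of them.

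The leave-out plot shows the contrast in precision between these genes. CEMIP and ADAMTS1 are shown because they passed, and HAS2 and TNFAIP6 because their changes were the largest of the 8 without passing. Part of the contrast therefore follows from that choice. For CEMIP and ADAMTS1 the SD within a group was at most 0.095, and their changes moved by less than 0.1 whichever array was removed. For HAS2 and TNFAIP6 the SD reached 0.56 and 0.30. Having 3 arrays a group limits the precision for all of these genes.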

How the data were processed

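Total RNA of 6 samples of the IMR90 line, 3 per group, was measured on Affymetrix gene arrays after labelling with an Ambion whole-transcript kit, per the labels' protocols. The authors deposited log2 expression, 1 value per probe set and array. The submitters' processing notes name RMA and the program Affymetrix Expression Console 1.1. Settings and genome build are not given in the sources used here. RMA makes changes relative to the rest of the array and tends to compress low levels.

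Of 33297 probe sets, 19460 carried exactly 1 symbol, 1754 several and 12083 none. Each gene was represented by its probe set of highest mean across arrays, giving 18417 genes. limma 3.58.1 (R 4.3.3; lmFit and eBayes, two-sided) was fitted with group as the only term, and p was adjusted by Benjamini-Hochberg over all genes. The model was first tested on simulated data. No filter on dim genes was used, and intervals are 95% moderated intervals. Samples were grouped by their titles.

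Members and lists were chosen with earlier results of these data known. The text names all members and, per list, each gene that passed or else the one with the largest change. UAP1, GNPNAT1, GFPT1, CEMIP2, HMMR, ADAMTS5 and ADAMTS9, and other genes named only by a change, a role or a position, were chosen after their values were seen. Promoter sequences are RefSeq's. Protein sequences were not used here. Figures were drawn with matplotlib 3.10.9.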

Additional observations from a re-analysis of the deposited data

How the results depend on the processing

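Of the 10 genes, 8 of them measured, 0 passed under 15 of 17 alternatives, which covered normalization between arrays, probe set choice, dim gene filters, variance prior, array weights, threshold and each array left out. Each of the 8 genes had 1 probe set with its symbol alone, so the probe set settings left their changes as they were. The stricter threshold could not raise a count of 0. For these genes, neither kind of setting is therefore a check. With the replicate block 1 passed (TNFAIP6, adjusted p = 0.0466), and with each array left out in turn between 0 and 1 passed (HAS2 without oncostatin M 3). The deviations of same-numbered arrays from their group means correlated at 0.0635, -0.456 and 0.511 over all genes for replicates 1, 2 and 3. For control arrays 1 and 3, and not 2, the best-matching treated array bore the same number. With 3 arrays a group, these correlations cannot decide whether same-numbered samples belong together. The block changed the count of higher genes to 255 and of lower genes to 223.

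Among the other pathway genes 2 passed, CEMIP and ADAMTS1, which held under every alternative run. With array weights 4 passed (with UGDH and CEMIP2), and with each array left out between 2 and 4, the 4 without oncostatin M 1 being the same genes. MSN passed with a trended prior (adjusted p = 0.0236) and CEMIP2 after a further quantile normalization (adjusted p = 0.0435). Over all genes, 316 higher and 314 lower became 667 and 610 with array weights and 175 and 112 at an adjusted p under 0.01. Without control 1 they were 156 and 105, without control 2 188 and 127, and the highest counts with an array left out were 400 and 332, without oncostatin M 1. Without control 3, 136 were lower, and without oncostatin M 2, 179.

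Changes near 0 that turned sign with an array left out were those of HYAL2 (from -0.11 to 0.00096, without control 2), CD44 (from -0.014, without oncostatin M 2, to 0.057, and -0.0037 without control 2), PTX3 (from -0.14 to 0.010, without oncostatin M 3) and HAPLN1 (from -0.11 to 0.0023, without control 2), with adjusted p between 0.975 and 0.999 where the sign turned. The cause was not tested. HAPLN1 was not among the genes left by either dim gene filter. Signal over background limits HAS3, HAPLN1 and the inter-alpha-inhibitor family genes. The control level of TNFAIP6 also lay little above the silent bound.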
